A study of Mus musculus with 9 samples.

Results

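The 10 Notch pathway genes described here are the receptors Notch1, Notch2, Notch3 and Notch4, the ligands Dll4, Jag1 and Jag2, and the target genes Hes1, Hey1 and Heyl. They were taken by name from a table of 19348 gene symbols. All 10 were found and passed the filter on low counts, as did 15550 genes in all. The table holds RNA-seq read counts for 9 libraries of cells sorted from mouse lung. Every mouse was C57BL/6J with the genotype Col1_GFP;Foxf1_tdTomato, so all 3 populations carry a green reporter named for type I collagen and a red reporter named for the forkhead factor Foxf1. The sources used here give no ages. DBL cells were sorted for both reporters (replicates 1, 3 and 4), TDonly cells for the Foxf1 reporter alone (replicates 1, 2 and 3) and ColGFP cells for the collagen reporter alone (replicates 1, 2 and 3). The sources used here describe neither the reporter constructs nor the gates of the sort. Nothing says that replicates came from separate mice, so p-values measure the spread between these libraries, which may be technical.

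Notch receptors are membrane proteins that bind Delta-like or Jagged ligands on a neighbouring cell. Binding exposes the receptor to ADAM proteases and then to gamma-secretase, which frees an intracellular domain that joins the DNA-binding protein RBPJ and Mastermind coactivators and switches on Hes and Hey repressor genes. In blood vessels Notch1, Notch4 and Dll4 are known from endothelial cells, where Dll4 restrains sprouting and favours arterial fate, whereas Notch3 and Heyl are known from pericytes and vascular smooth muscle.

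Promoter sequence was matched in RefSeq (GRCm38.p6, the assembly of mm10) for 7 of the 10 genes, the receptors and ligands, and not for Hes1, Hey1 and Heyl. Each window of 250 bases before the RefSeq start was searched on both strands for TGGGAA (the core bound by RBPJ), AGGAAG (a core bound by ETS factors, a family active in endothelium) and TGTTTAC (a core bound by forkhead factors such as Foxf1). The windows of Notch4 and Dll4, which had closely matching patterns over the libraries, and that of Notch3, which had another, are shown on the strand of the gene, 5′ to 3′, with AGGAAG or its reverse complement CTTCCT in capitals.
Notch4 (chr17:34564045-34564294, plus strand): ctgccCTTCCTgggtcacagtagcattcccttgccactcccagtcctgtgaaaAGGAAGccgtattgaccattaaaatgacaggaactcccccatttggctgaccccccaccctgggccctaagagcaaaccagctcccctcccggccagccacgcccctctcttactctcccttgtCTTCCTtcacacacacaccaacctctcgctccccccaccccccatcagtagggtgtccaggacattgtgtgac
Dll4 (chr2:119325534-119325783, plus strand): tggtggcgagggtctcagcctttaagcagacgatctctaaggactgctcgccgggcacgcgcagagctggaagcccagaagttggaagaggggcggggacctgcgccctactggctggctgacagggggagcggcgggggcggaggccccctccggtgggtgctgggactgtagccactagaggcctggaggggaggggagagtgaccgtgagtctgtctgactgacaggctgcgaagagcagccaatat
Notch3 (chr17:32166891-32167140, minus strand): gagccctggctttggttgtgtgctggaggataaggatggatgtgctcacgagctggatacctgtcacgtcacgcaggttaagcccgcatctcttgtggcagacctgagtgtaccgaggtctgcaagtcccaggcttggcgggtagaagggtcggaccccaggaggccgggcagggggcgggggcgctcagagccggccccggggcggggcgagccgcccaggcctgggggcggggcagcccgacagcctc
The Notch4 window held 3 matches to AGGAAG on either strand, at 245 to 240, 197 to 192 and 73 to 68 bases before the start. The windows of Notch1, Notch2, Notch3, Dll4, Jag1 and Jag2 held none of these exact letters. Shorter or other forms of the ETS site were not searched, so these windows may hold them. In addition, 250 bases of the Jag2 window and 124 of the Jag1 window lie in exons of the same gene in GENCODE M21. Neither TGGGAA nor TGTTTAC occurred in any of the 7 windows, so no matches of different motifs overlapped. Among 32817 RefSeq windows of the same length, 29.5% held AGGAAG, 21.6% held TGGGAA and 3.16% held TGTTTAC. A match describes letters in a short window and says nothing of binding.

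Library totals were 17820969 to 26147475 counts, and the lowest count of any of the 10 genes in a library was 127. Levels are given in CPM, the usual library-scaled unit of counts, here with TMM factors. The Foxf1 transcript (Foxf1a in the file) averaged 101 ± 13.1 CPM in DBL, 246 ± 28.5 CPM in TDonly and 59.6 ± 4.47 CPM in ColGFP (SD, n = 3 each), and Col1a1 had 9536 to 13219 CPM in DBL, 373 to 1565 CPM in TDonly and 4937 to 9590 CPM in ColGFP. Markers of epithelium summed to 6345 to 6974 CPM in DBL, 9820 to 13047 CPM in TDonly and 3461 to 10173 CPM in ColGFP, with none of the 10 markers at 0 in any library. The replicate 1 libraries carry lower sequencing core numbers than the other 6 (the higher series), and no label calls these a batch. Replicate pairs that include a replicate 1 library differed by a chi-square per degree of freedom of 53.8 to 98.8 over all genes, against 5.32 to 14.6 for the other pairs. Values within the higher series and ratios between the replicate 1 libraries are therefore given with the results. The higher series holds only DBL replicates 3 and 4 and replicates 2 and 3 of TDonly and of ColGFP. It is a subset of the same libraries, without those that differed most. Its smaller adjusted p-values are therefore not independent support. In bulk libraries, fewer cells of a type and less RNA per cell cannot be told apart.

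DBL against ColGFP asks how collagen reporter cells with the Foxf1 reporter differ from those without it. The ligands Dll4, Jag1 and Jag2, the receptors Notch1 and Notch4 and the target Hey1 were higher in DBL, and the target Hes1 was lower. By the quasi-likelihood test of edgeR, with p-values adjusted over all genes by Benjamini-Hochberg and a threshold of 0.05, these were 6 of 10 higher and 1 of 10 lower, against 14.5% of all genes called in either direction (8.04% higher and 6.47% lower). The 1 lower gene became 0 without ColGFP replicate 2 and 3 without TDonly replicate 1. Against TDonly, 7 of the 10 genes were lower in DBL and 3 higher, against 29.9% of all genes called (17.3% higher and 12.6% lower). In TDonly against ColGFP, 6 of the 10 were higher and 3 lower, against 45.5% of all genes called (21.6% higher and 24.0% lower). The median log2 fold change of the 10 genes was 1.03 in DBL over ColGFP, -0.88 in DBL over TDonly and 1.80 in TDonly over ColGFP, where the medians over all genes tested were -0.0032, -0.042 and 0.016. The 3 comparisons share libraries, so they are not independent of one another.

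The libraries of the compared populations did not overlap for 10 of the 10 genes in DBL against ColGFP, where 33.3% of all genes did not overlap. They did not overlap for 10 of 10 in DBL against TDonly (47.0% of all genes) and for 9 of 10 in TDonly against ColGFP (56.1%), Hes1 being the exception. Within the 6 libraries of the higher series, 10 of the 10 genes passed in DBL against ColGFP, where 28.9% of all genes did (16.3% higher and 12.6% lower). In DBL against TDonly 10 of 10 passed, against 43.1% of all genes (23.6% higher and 19.4% lower), and in TDonly against ColGFP 9 of 10, against 56.6% (26.8% higher and 29.8% lower). Every sign was as in all 9 libraries, of which these 6 are a part. The ratios between the replicate 1 libraries had the same sign for 10, 10 and 9 of the 10 genes, the exception again being Hes1 in TDonly against ColGFP.

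**Figure D1:**
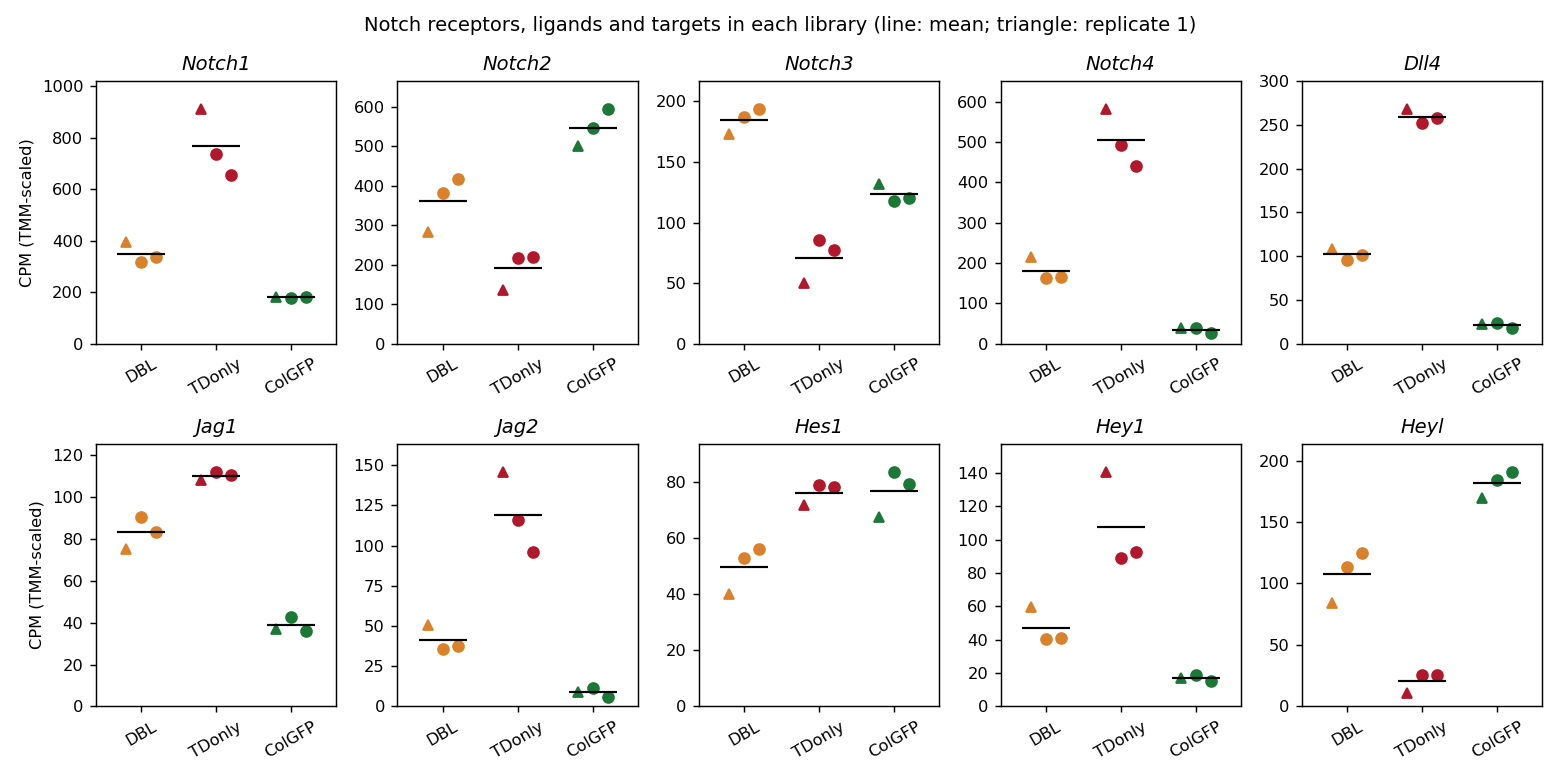
Level of each of the 10 genes in CPM (vertical axes, linear from 0) in the 3 libraries of DBL, TDonly and ColGFP; each point is a library, triangles are replicate 1 and lines are means. Notch4, Dll4, Jag2, Notch1 and Hey1 step down through TDonly, DBL and ColGFP, Notch2 and Heyl step the other way, Notch3 is highest in DBL and Hes1 is lowest there.

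Among the receptors, Notch1, which acts in endothelium and in many other cell types, had 394, 317 and 337 CPM in DBL, against 911, 737 and 654 CPM in TDonly and 181, 178 and 180 CPM in ColGFP. Each population occupied its own range, with TDonly highest and ColGFP lowest. Notch1 was higher in DBL than in ColGFP by a log2 fold change of 0.96 ± 0.14 (SE; adjusted p = 0.00153), lower in DBL than in TDonly (-1.13 ± 0.14, adjusted p = 0.000319) and higher in TDonly than in ColGFP (2.09 ± 0.14, adjusted p = 3.35e-06).

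Notch4, a receptor largely restricted to endothelium, had 216, 163 and 165 CPM in DBL, against 582, 493 and 440.2 CPM in TDonly and 38.0, 38.8 and 27.5 CPM in ColGFP. The order of the populations was that of Notch1 over a wider span, with a TDonly mean 14.5-fold above the ColGFP mean. The log2 fold changes were 2.38 ± 0.18 in DBL over ColGFP (adjusted p = 4.03e-05), -1.48 ± 0.17 in DBL over TDonly (adjusted p = 0.000279) and 3.86 ± 0.19 in TDonly over ColGFP (adjusted p = 5.90e-07).

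Notch2, the receptor known from mesenchymal and smooth muscle cells among others, ran the other way, with 283, 381 and 417 CPM in DBL, against 137, 217 and 220 CPM in TDonly and 500.0, 547 and 594 CPM in ColGFP. The 3 populations did not overlap, and replicate 1 was the lowest library in each. Notch2 was higher in DBL than in TDonly (0.91 ± 0.20, adjusted p = 0.00741) and lower in TDonly than in ColGFP (-1.52 ± 0.20, adjusted p = 0.000231). DBL over ColGFP was -0.60 ± 0.20, with an adjusted p of 0.0808 that missed the threshold. Within the higher series that value was -0.50 and passed (adjusted p = 2.79e-05). The ratio of the replicate 1 libraries was -0.82.

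Notch3, the receptor of mural cells, was the only one of the 10 genes with its highest mean in DBL. It had 173, 187 and 194 CPM in DBL, against 49.9, 85.5 and 77.1 CPM in TDonly and 132, 118 and 119.99 CPM in ColGFP. Every DBL library lay above every library of the other populations. Notch3 was higher in DBL than in TDonly (1.38 ± 0.18, adjusted p = 0.000382) and lower in TDonly than in ColGFP (-0.80 ± 0.17, adjusted p = 0.00426). DBL over ColGFP was 0.58 ± 0.17, just outside the threshold (adjusted p = 0.0513). It was 0.69 ± 0.08 within the higher series, a subset with less spread (adjusted p = 1.50e-06), and 0.40 between the replicate 1 libraries. Summed levels of 9 pericyte markers, which leave out Notch3, were 857 to 1127 CPM in DBL, 142 to 273 CPM in TDonly and 772 to 1049 CPM in ColGFP, with none at 0 in any library. Most of that sum came from Abcc9, Pdgfrb and Postn, at 373, 387 and 158 CPM on average in DBL. Rgs5, Higd1b, Cox4i2 and Trpc6 had their highest means in TDonly, at 8.69, 1.94, 4.85 and 12.2 CPM. Of the whole list, Notch3 included, 1 of 10 was higher and 1 lower in DBL than in ColGFP, near the 14.5% of all genes called there. In DBL against TDonly 6 were higher and 0 lower, where 29.9% of all genes were called. In TDonly against ColGFP 3 were higher and 6 lower, where 45.5% of all genes were called. Mesothelial and fibroblast markers also had their highest mean sums in DBL. The 6 mesothelial markers summed to 568 to 673 CPM in DBL, 68.6 to 266 CPM in TDonly and 109 to 179 CPM in ColGFP. Of these 6, 5 were higher in DBL than in ColGFP and 6 higher than in TDonly, where 8.04% and 17.3% of all genes were called higher. The 12 fibroblast markers summed to 33258 to 42960 CPM in DBL, 1519 to 5552 CPM in TDonly and 20012 to 35780 CPM in ColGFP. The ranges of DBL and ColGFP overlapped. Of the 12, 1 was higher and 2 lower in DBL than in ColGFP, where 14.5% of all genes were called. Pdgfra, Tcf21, Fgf10 and Npnt had their highest means in ColGFP (1992, 124, 114 and 1662 CPM). Dpp4 had its highest in TDonly (187 CPM), and the rest had theirs in DBL. The part of these cell types in the Notch3 level was not tested.

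Among the ligands, Dll4, the main endothelial Delta-like ligand, had 108, 95.7 and 102 CPM in DBL, against 268, 252 and 258 CPM in TDonly and 22.1, 24.0 and 17.4 CPM in ColGFP. Replicates lay close together and the populations far apart. The log2 fold changes were 2.27 ± 0.12 in DBL over ColGFP (adjusted p = 1.03e-05), -1.35 ± 0.12 in DBL over TDonly (adjusted p = 8.29e-05) and 3.62 ± 0.13 in TDonly over ColGFP (adjusted p = 1.87e-07).

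Jag2, a Jagged ligand found in arterial endothelium and epithelium, had 50.9, 35.7 and 37.7 CPM in DBL, against 146, 116 and 95.8 CPM in TDonly and 9.16, 11.7 and 5.87 CPM in ColGFP. The populations did not overlap and kept the order seen for Dll4. Jag2 was higher in DBL than in ColGFP (2.23 ± 0.26, adjusted p = 0.000445), lower in DBL than in TDonly (-1.52 ± 0.24, adjusted p = 0.00130) and higher in TDonly than in ColGFP (3.75 ± 0.27, adjusted p = 5.12e-06).

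Jag1, a ligand used by endothelium and by mural cells, had 75.4, 90.5 and 83.4 CPM in DBL, against 108, 112 and 110.3 CPM in TDonly and 37.1, 42.9 and 35.9 CPM in ColGFP. DBL stood nearer to TDonly than to ColGFP. Jag1 was higher in DBL than in ColGFP (1.10 ± 0.10, adjusted p = 0.000109) and higher in TDonly than in ColGFP (1.51 ± 0.10, adjusted p = 3.16e-06). Its difference of DBL from TDonly was smaller (-0.41 ± 0.10, adjusted p = 0.0120) and did not pass without DBL replicate 4 (-0.37, adjusted p = 0.0595).

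Among the targets, Hey1, an arterial endothelial repressor, had 59.7, 40.6 and 41.1 CPM in DBL, against 141, 88.7 and 92.5 CPM in TDonly and 17.3, 19.0 and 15.1 CPM in ColGFP. Replicate 1 was the highest library in DBL and in TDonly. Hey1 was higher in DBL than in ColGFP (1.46 ± 0.22, adjusted p = 0.00175), lower in DBL than in TDonly (-1.19 ± 0.21, adjusted p = 0.00220) and higher in TDonly than in ColGFP (2.65 ± 0.22, adjusted p = 1.18e-05).

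Heyl, a related repressor known from vascular smooth muscle, had 83.9, 113 and 125 CPM in DBL, against 11.2, 25.2 and 25.3 CPM in TDonly and 169, 185 and 191 CPM in ColGFP. It ran opposite to Hey1, and replicate 1 was again the lowest library in each population. Heyl was higher in DBL than in TDonly (2.38 ± 0.29, adjusted p = 0.000298) and lower in TDonly than in ColGFP (-3.14 ± 0.29, adjusted p = 2.31e-05). DBL over ColGFP was -0.76 ± 0.27 and missed the threshold (adjusted p = 0.101), but it passed within the higher series (-0.64, adjusted p = 4.31e-06) and was -1.01 between the replicate 1 libraries. Summed levels of 9 smooth muscle markers were 721 to 911 CPM in DBL, 167 to 229 CPM in TDonly and 2619 to 5097 CPM in ColGFP. Hhip, which lung mesenchyme also expresses, made up much of this in ColGFP (2274 ± 610.4 CPM, against 139 ± 29.7 CPM in DBL). The other 8 markers summed to 553 to 802 CPM in DBL, 159.5 to 199 CPM in TDonly and 873 to 2154 CPM in ColGFP. Of the 9, 4 passed as lower in DBL than in ColGFP, Hhip among them, where 6.47% of all genes were called lower. The part of these markers in the Heyl level was not tested.

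Hes1, a repressor expressed in many cell types, was the only one of the 10 genes that was lower in DBL than in both other populations. It had 40.0, 53.0 and 56.2 CPM in DBL, against 71.9, 78.9 and 78.2 CPM in TDonly and 67.5, 83.7 and 79.5 CPM in ColGFP. All DBL libraries lay below all others, while TDonly and ColGFP overlapped. DBL over ColGFP was -0.63 ± 0.14 (adjusted p = 0.0132) and DBL over TDonly was -0.62 ± 0.14 (adjusted p = 0.00729). The same 2 differences were -0.56 and -0.48 within the higher series (adjusted p = 3.34e-05 and 0.0001) and -0.75 and -0.84 between the replicate 1 libraries. Without ColGFP replicate 2 the difference from ColGFP was -0.57 and did not pass (adjusted p = 0.0544). TDonly over ColGFP was -0.01 ± 0.14 (95% interval -0.32 to 0.29, adjusted p = 0.955). Only 1.07% of all genes tested passed in the same direction in both comparisons of DBL.

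**Figure D2:**
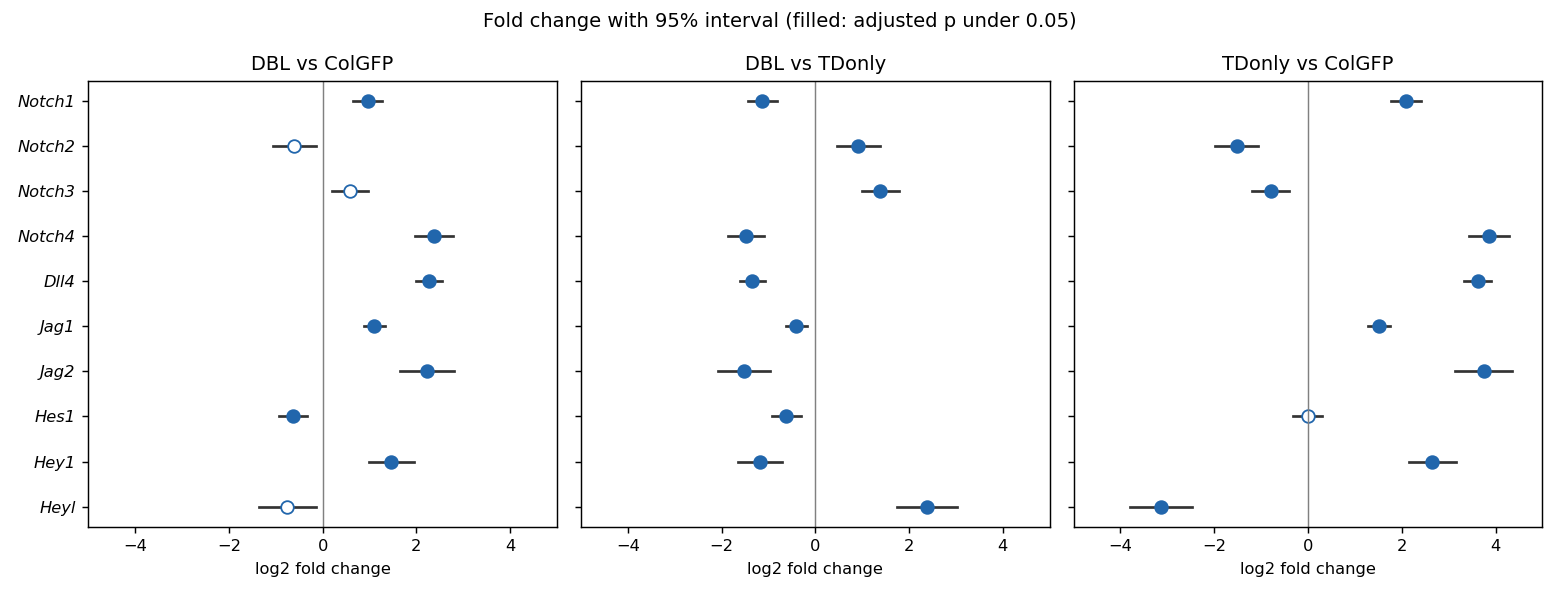
Log2 fold change (horizontal axis) of each of the 10 genes in DBL over TDonly, DBL over ColGFP and TDonly over ColGFP, with 95% intervals from the fit to all 9 libraries. Notch4 and Jag2 have the largest positive values in TDonly over ColGFP (3.86 and 3.75), Heyl the most negative (-3.14), and Hes1 is near 0 there.

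For 6 of the 10 genes, Notch1, Notch4, Dll4, Jag1, Jag2 and Hey1, DBL passed as above ColGFP and below TDonly, a pattern of opposite directions that 8.73% of all genes tested showed in either order. On the scale from the ColGFP mean (0%) to the TDonly mean (100%) in CPM, DBL lay at 28.9% for Notch1, 31.1% for Notch4, 33.9% for Dll4, 29.5% for Jag2 and 33.3% for Hey1. For 13 general endothelial markers it lay at 27.3 to 34.9%, with a median of 31.1%. Jag1 lay at 62.1%, above that range. Notch2 and Heyl, with means that were highest in ColGFP, lay at 52.4% and 46.1%.

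Endothelial transcripts were present in all 3 populations. The summed level of the 13 endothelial markers (among them the junction genes Pecam1 and Cdh5) was 4375 to 5488 CPM in DBL, 12971.5 to 14015 CPM in TDonly and 778 to 1169 CPM in ColGFP, and none was at 0 in any library. All 14 listed endothelial markers passed in every comparison. Their medians were 2.39 in DBL over ColGFP, -1.49 in DBL over TDonly and 3.92 in TDonly over ColGFP on the log2 scale. Of all genes, 14.5%, 29.9% and 45.5% were called in the same order. The share of endothelial cells in each population was not measured, and its part in the levels of Notch1, Notch4, Dll4, Jag1, Jag2 and Hey1 was not tested.

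Levels were also set against the endothelial markers as a ratio, the CPM of a gene per 1000 CPM of those 13 markers. Notch4 had 37.9 ± 1.17 per 1000 in DBL, 37.6 ± 4.05 in TDonly and 36.8 ± 5.06 in ColGFP (SD, n = 3 each). Dll4 had 21.6 ± 1.69 in DBL, 19.4 ± 0.250 in TDonly and 22.5 ± 3.66 in ColGFP, and Jag2 had 8.66 ± 0.563, 8.87 ± 1.57 and 9.37 ± 2.92 in the same order. For Notch4 and Jag2 the library ranges of all 3 populations overlapped, whereas the CPM of these genes differed 13.4-fold or more between the highest and lowest population means.

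The Dll4 range in DBL lay just above that in TDonly, and both lay within that of ColGFP. The other 7 genes had ratios whose library ranges did not overlap between populations, except for Hey1 in DBL and TDonly. Jag1 had 17.8 ± 3.61 per 1000 in DBL, 8.24 ± 0.470 in TDonly and 41.6 ± 8.51 in ColGFP. Notch1 had 73.5 ± 2.42 in DBL, 57.1 ± 7.67 in TDonly and 194 ± 38.1 in ColGFP, and Hey1 had 9.83 ± 0.912, 7.96 ± 1.79 and 18.3 ± 3.15 in the same order. Notch3 had 39.4 ± 6.82 in DBL, 5.34 ± 1.58 in TDonly and 132 ± 21.0 in ColGFP. Notch2, Hes1 and Heyl were likewise lowest in TDonly and highest in ColGFP, at 77.8, 10.7 and 23.2 per 1000 in DBL, 14.4, 5.72 and 1.55 in TDonly and 596, 83.8 and 197 in ColGFP. These ratios describe bulk RNA and do not assign a transcript to a cell type; they were not tested.

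**Figure D3:**
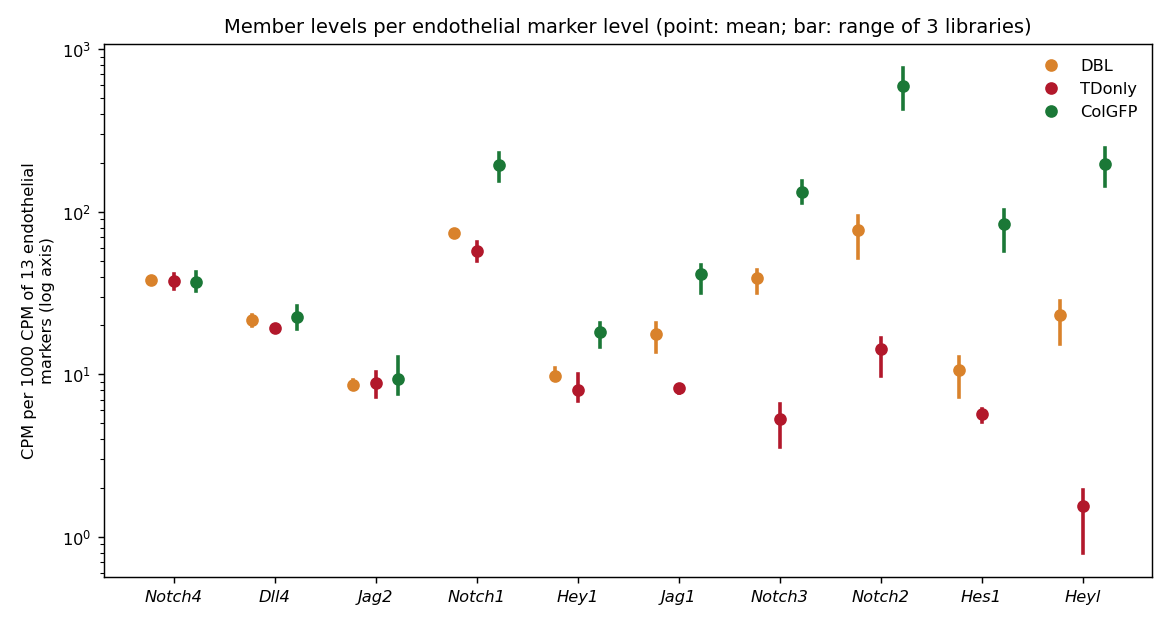
CPM of each gene per 1000 CPM of 13 endothelial markers (log axis) in DBL, TDonly and ColGFP; points are means of 3 libraries and bars run over the library range. Notch4, Dll4 and Jag2 sit at nearly one height in the 3 populations, whereas Heyl runs over a span of 1.55 in TDonly to 197 in ColGFP.

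To compare genes with each other, CPM was divided by the length of the exons in kilobases. The receptors summed to 103 ± 3.06 CPM per kb in DBL, 143 ± 12.3 in TDonly and 82.9 ± 2.97 in ColGFP. In DBL the sum was spread over the 4 receptors, with 23.8 ± 2.87% Notch1, 32.3 ± 5.74% Notch2, 22.1 ± 1.02% Notch3 and 21.8 ± 3.84% Notch4. In TDonly, Notch4 made up 43.7 ± 2.53% and Notch1 37.5 ± 3.28%, followed by Notch2 at 12.6 ± 3.91% and Notch3 at 6.22 ± 1.94%. In ColGFP, Notch2 made up 61.1 ± 3.11%, followed by Notch3 at 18.4 ± 1.67%, Notch1 at 15.2 ± 0.607% and Notch4 at 5.23 ± 1.09%. Neighbours in these orders depended on the length used: with the longest transcript of each gene, Notch1 (30.25%) stood above Notch2 (28.24%) in DBL, Notch1 (43.63%) above Notch4 (41.41%) in TDonly and Notch1 (20.67%) above Notch3 (16.78%) in ColGFP.

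The ligands Dll4, Jag1 and Jag2 together summed to 46.7 ± 1.51 CPM per kb in DBL, 103 ± 5.01 in TDonly and 13.4 ± 1.87 in ColGFP. Dll4 made up 56.7 ± 1.86% of that sum in DBL, 65.2 ± 1.81% in TDonly and 40.9 ± 1.75% in ColGFP. Jag1 made up 30.6 ± 3.72% in DBL, 18.3 ± 1.13% in TDonly and 49.7 ± 3.28% in ColGFP, where it was the leading ligand. Jag2 made up 12.7 ± 2.09%, 16.5 ± 2.70% and 9.36 ± 1.88% in the same order. The Delta-like ligand Dll1, described below, was not in this sum. It had 11.9 CPM per kb in DBL, 33.8 in TDonly and 2.82 in ColGFP, above Jag2 in each (5.95, 17.1 and 1.28). Among the targets, Hes1 had 24.4 CPM per kb in DBL, followed there by Heyl at 21.0 and Hey1 at 14.4. In TDonly, Hes1 (37.5 CPM per kb) and Hey1 (32.8) stood above Heyl (4.02), and in ColGFP, Hes1 (37.8) and Heyl (35.5) stood above Hey1 (5.25).

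**Figure D4:**
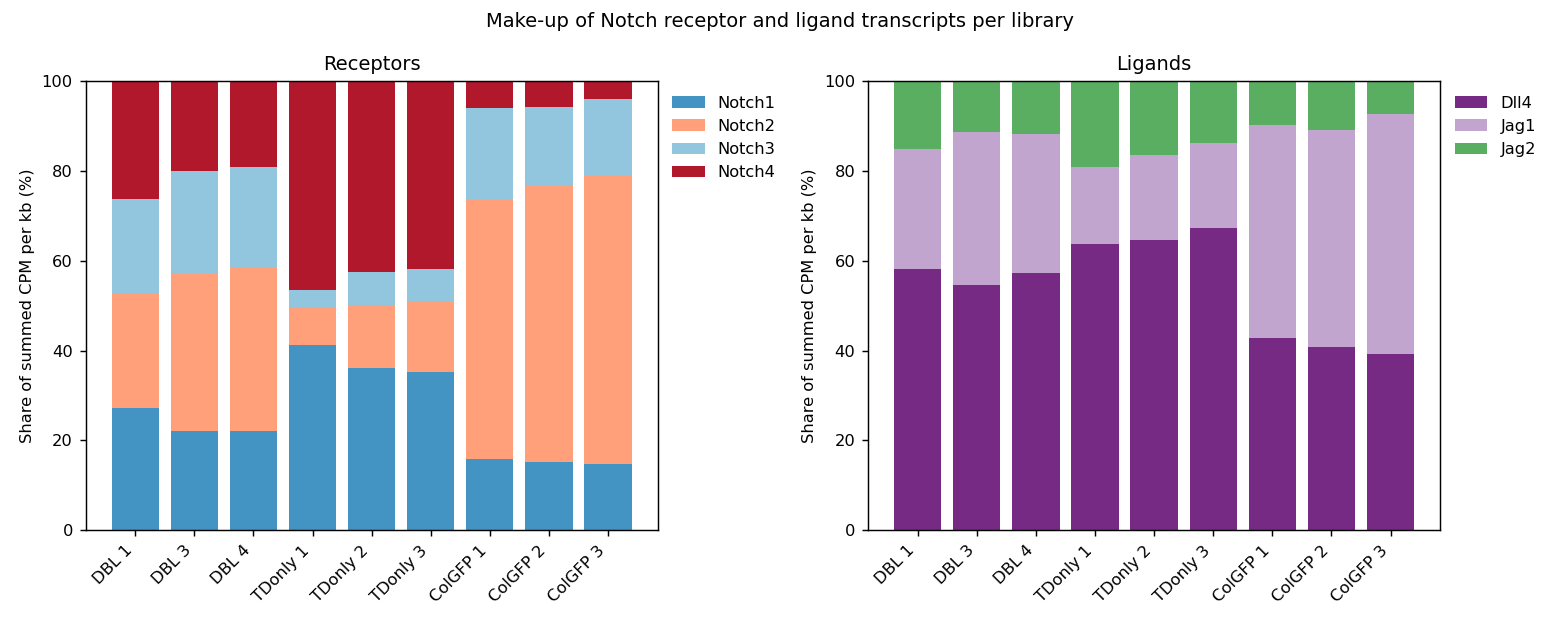
Share (percent) of each receptor in the summed receptor level per kilobase, and of Dll4, Jag1 and Jag2 in their summed level per kilobase. Each of the 9 libraries of DBL, TDonly and ColGFP has its own stacked bar. On average Notch2 takes 61.1% of the receptor sum in ColGFP and Notch4 43.7% in TDonly. In DBL no receptor exceeds 36.3% in any library.

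The genes are spread over 6 chromosomes in mm10 (GENCODE M21), on chromosome 2 (Notch1 at 26457903 to 26516663, Dll4 at 119325784 to 119335962 and Jag1 at 137081456 to 137116644), 3 (Notch2 and Hey1), 4 (Heyl), 12 (Jag2), 16 (Hes1) and 17 (Notch3 and Notch4). Counts are per gene over its exons. Exons of other genes overlap 7.50% and 2.91% of the Notch1 exon bases (0610009E02Rik and Gm13568), 5.02% of those of Notch2 (Gm42820), 6.03% of those of Notch3 (the antisense Gm17276) and 5.56% of those of Dll4 (Gm14207). The sources used here do not give the strand setting of the counting, and reads in those stretches cannot be assigned.

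For each gene, the 3 other genes with the most similar log2 CPM over the 9 libraries were found among those of at least 10 CPM on average, by Pearson's r. The 9 libraries fall into 3 populations, so r mostly reflects the differences between population means. Dll4 was most like Ramp2 (0.999), Kdr (0.999) and Icam2 (0.999), all expressed in endothelium, and Notch4 was most like Thsd1 (0.999), Arhgef15 (0.999) and Npr1 (0.999). Jag2 was most like Nptx1 (0.997), Notch4 (0.996) and Arhgef15 (0.996). Notch1 was most like Hmbox1, Mesdc1 and Prkd2 (0.997, 0.997 and 0.996), Jag1 like Calcrl, Vav3 and Aqp1 (0.991, 0.991 and 0.991) and Hey1 like Tbkbp1, Shroom4 and Abi3 (0.999, 0.998 and 0.997). Heyl was most like the collagen genes Col4a6 (0.999) and Col6a1 (0.998) and Dkk3 (0.998), and Notch2 like Tmem43, Faim2 and Fos (0.998, 0.997 and 0.995). Notch3 was most like Plekhg3 (0.997), the matrix protein gene Postn (0.990) and Zim1 (0.988). Hes1 had the loosest matches, at 0.945 for Hmcn1, 0.942 for Tmed4 and 0.935 for Car2.

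The wider pathway was followed with 53 further genes, of which 49 were tested; Dll3, Dlk2, Hes5 and Hes7, with at most 11, 8, 5 and 8 counts in a library, were not. In DBL against ColGFP, 11 were higher and 4 lower, against 14.5% of all genes called. In DBL against TDonly, 10 were higher and 14 lower, against 29.9% of all genes, and in TDonly against ColGFP, 16 were higher and 16 lower, against 45.5%. Their median log2 fold changes were 0.04, -0.05 and -0.16. The 4 lower genes in DBL against ColGFP were 0 without DBL replicate 1 or 3, 1 without DBL replicate 4 and 2 without ColGFP replicate 2 or 3.

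Of the other ligands, 4 were tested. Dll1, another Delta-like ligand, averaged 50.0 ± 13.6 CPM in DBL, 143 ± 22.3 CPM in TDonly and 11.9 ± 4.66 CPM in ColGFP, which is the order of Dll4. It was higher in DBL than in ColGFP (2.07 ± 0.28, adjusted p = 0.00104) and lower in DBL than in TDonly (-1.51 ± 0.27, adjusted p = 0.00217). Egfl7, a secreted endothelial protein that binds Notch receptors, averaged 236 ± 68.9, 655 ± 134.6 and 42.3 ± 16.4 CPM in the same order and passed in the same directions. Dner, a non-classical ligand, averaged 17.5 ± 4.99 CPM in DBL, 1.68 ± 1.21 CPM in TDonly and 9.74 ± 4.43 CPM in ColGFP and was higher in DBL than in TDonly (3.38 ± 0.58, adjusted p = 0.00193). Dlk1, a non-canonical ligand, averaged 4.65 ± 2.85 CPM in DBL, 0.214 ± 0.300 CPM in TDonly and 1.75 ± 0.981 CPM in ColGFP; it passed as higher in DBL than in TDonly (adjusted p = 0.00469), where its level was too low for a fold change to be given.

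Of the 5 genes that add sugars to Notch receptors, 2 were higher and 0 lower in DBL than in ColGFP. In DBL against TDonly, 1 was higher and 2 lower. Of all genes, 14.5% and 29.9% were called in these comparisons. The Fringe genes Lfng and Mfng were higher in DBL than in ColGFP and lower than in TDonly. The Fringe gene Rfng did not follow them. It passed in neither comparison of DBL (-0.09 ± 0.12 over ColGFP, adjusted p = 0.713, and 0.26 ± 0.12 over TDonly, adjusted p = 0.131). It was lower in TDonly than in ColGFP (-0.35 ± 0.12, adjusted p = 0.0387). Lfng averaged 33.6 ± 3.11 CPM in DBL, 86.3 ± 3.58 CPM in TDonly and 9.62 ± 1.04 CPM in ColGFP, with log2 fold changes of 1.80 ± 0.11 in DBL over ColGFP (adjusted p = 1.71e-05) and -1.36 ± 0.11 in DBL over TDonly (adjusted p = 6.09e-05). Mfng averaged 27.5 ± 6.51, 73.5 ± 11.03 and 4.14 ± 2.22 CPM in the same order. Pofut1, which adds the fucose that Fringe proteins extend, was higher in DBL than in TDonly (0.66 ± 0.13, adjusted p = 0.00442).

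Of all genes, 14.5% were called in DBL against ColGFP and 29.9% in DBL against TDonly. Of the 10 genes of receptor cleavage, 1 was higher and 1 lower in DBL than in ColGFP. In DBL against TDonly, 0 were higher and 2 lower, so both counts were near the shares of all genes. The 2 lower ones were Adam10, the protease of the first cut after ligand binding (-0.58 ± 0.12, adjusted p = 0.00437), and the gamma-secretase subunit gene Aph1a (-0.72 ± 0.09, adjusted p = 0.000331). Aph1a was higher in DBL than in ColGFP (0.46 ± 0.09, adjusted p = 0.00748). Aph1c was lower there (-1.17 ± 0.31, adjusted p = 0.0331). It closely resembles Aph1b, so reads of the pair may not be told apart and its count is less certain.

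Of the 11 genes of the nuclear complex and its corepressors, Rbpj averaged 175 ± 32.8 CPM in DBL, 89.4 ± 4.04 CPM in TDonly and 162 ± 15.2 CPM in ColGFP. It was higher in DBL than in TDonly (0.97 ± 0.14, adjusted p = 0.000742) and lower in TDonly than in ColGFP (-0.86 ± 0.14, adjusted p = 0.000777). The corepressor genes Tle1 and Tle3 moved in opposite directions. Tle1 was higher in DBL than in ColGFP (0.72 ± 0.08, adjusted p = 0.000359) and lower in DBL than in TDonly (-0.87 ± 0.08, adjusted p = 9.45e-05), while Tle3 was lower than in ColGFP (-0.57 ± 0.14, adjusted p = 0.0239) and higher than in TDonly (1.02 ± 0.14, adjusted p = 0.000606). The coactivator genes Maml2 (-0.46 ± 0.11, adjusted p = 0.0168) and Maml3 (-0.61 ± 0.15, adjusted p = 0.0222) were lower in DBL than in ColGFP. Both were also lower in TDonly than in ColGFP (-0.43 and -0.51, adjusted p = 0.00794 and 0.0192). Neither passed in DBL against TDonly (adjusted p = 0.863 and 0.635). The lower calls of Tle3, Maml2 and Maml3 against ColGFP were lost without DBL replicate 1 or 3.

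Of the 13 ubiquitin and trafficking regulators, 3 were higher and 0 lower in DBL than in ColGFP, and 4 were higher and 4 lower in DBL than in TDonly, where 14.5% and 29.9% of all genes were called. Numb and Numbl, related inhibitors of Notch signalling, differed from TDonly in opposite directions. Numb averaged 75.2 ± 7.99 CPM in DBL, 166 ± 4.02 CPM in TDonly and 39.99 ± 4.52 CPM in ColGFP and was lower in DBL than in TDonly (-1.14 ± 0.11, adjusted p = 0.000120). Numbl averaged 80.8 ± 15.8, 18.5 ± 3.95 and 74.6 ± 12.2 CPM in the same order and was higher in DBL than in TDonly (2.13 ± 0.21, adjusted p = 0.000118). Neurl3, a Neuralized-type gene, was higher in DBL than in ColGFP (1.63 ± 0.14, adjusted p = 7.58e-05) and lower than in TDonly (-1.23 ± 0.13, adjusted p = 0.000196).

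Of the other targets, 6 were tested, with 2 higher and 0 lower in DBL than in ColGFP and 1 higher and 3 lower in DBL than in TDonly, where 14.5% and 29.9% of all genes were called. Nrarp, a target that limits Notch signalling, averaged 16.8 ± 1.95 CPM in DBL, 37.5 ± 2.89 CPM in TDonly and 6.71 ± 1.06 CPM in ColGFP. It was higher in DBL than in ColGFP (1.33 ± 0.15, adjusted p = 0.000324) and lower in DBL than in TDonly (-1.16 ± 0.14, adjusted p = 0.000324). Efnb2, the arterial ephrin, averaged 264 ± 16.4, 734 ± 24.9 and 168 ± 18.2 CPM in the same order. Its log2 fold changes were 0.65 ± 0.11 in DBL over ColGFP (adjusted p = 0.00333) and -1.48 ± 0.11 in DBL over TDonly (adjusted p = 5.49e-05). Of 8 listed arterial markers, Efnb2 and Hey1 among them, 6 were higher in TDonly than in ColGFP. The other 2, Gja5 and Fbln5, were lower there, where 45.5% of all genes were called. Hey2 was higher in DBL than in TDonly (0.87 ± 0.22, adjusted p = 0.0137), against the direction of Hey1, at 8.73 ± 1.00 CPM in DBL and 4.79 ± 1.49 CPM in TDonly.

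**Figure D5:**
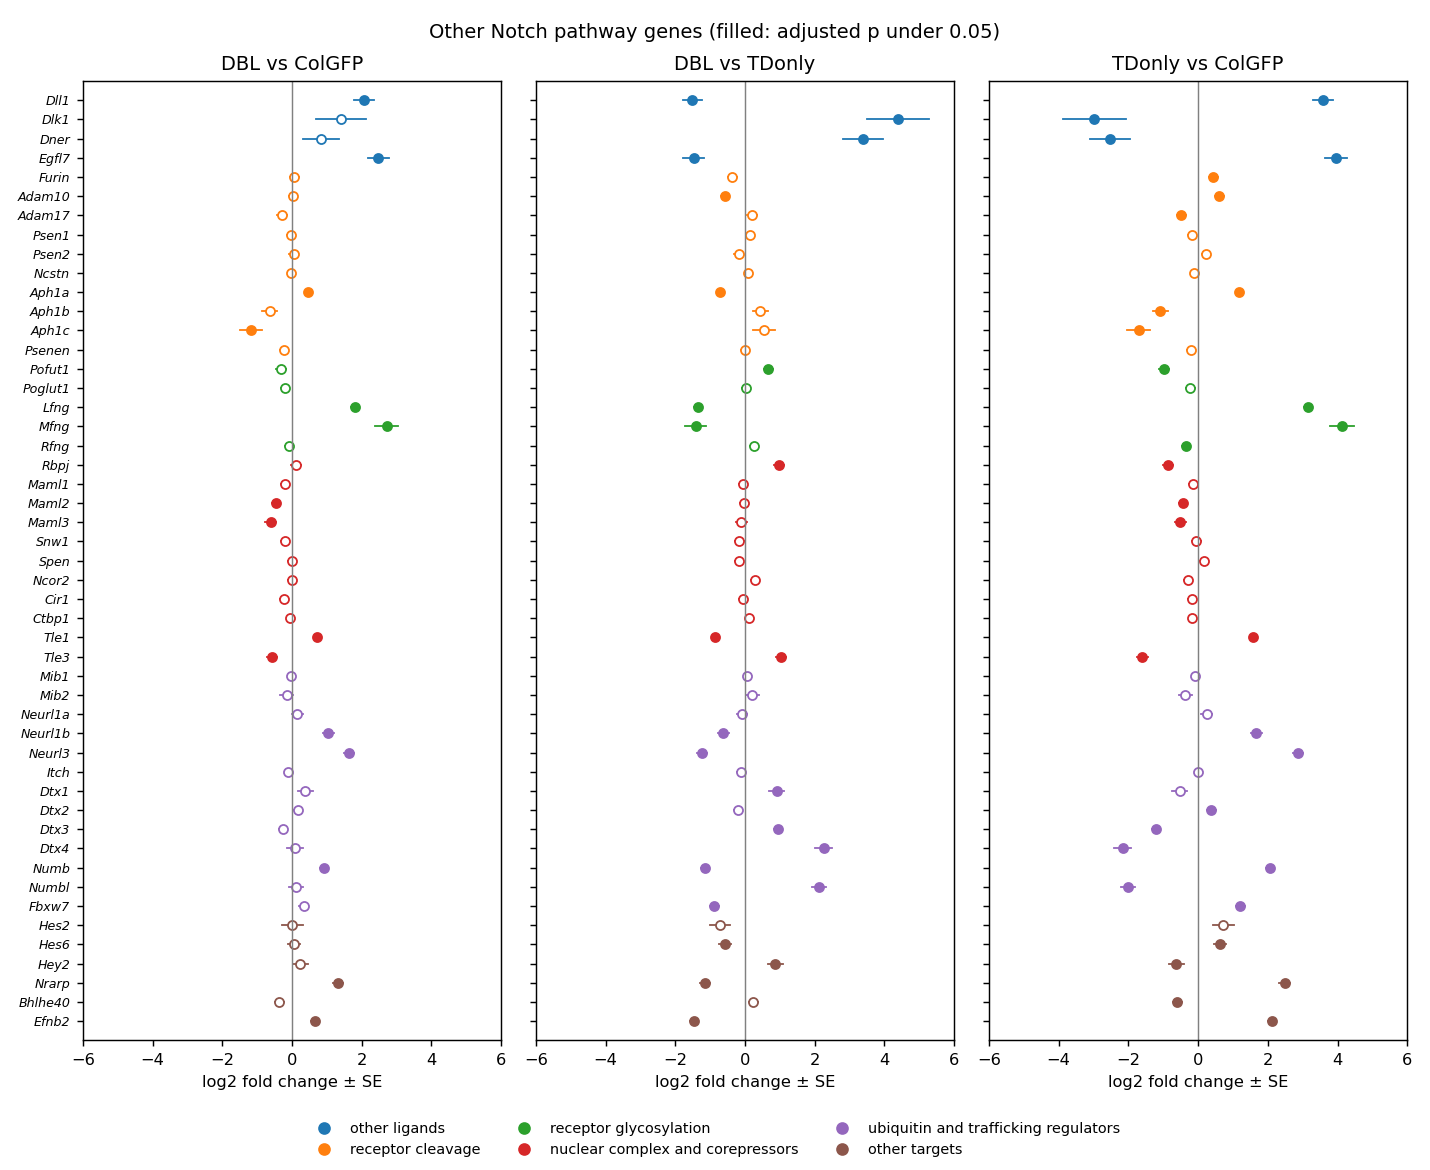
Log2 fold change with its SE (horizontal axis) of the wider pathway genes in DBL over TDonly, DBL over ColGFP and TDonly over ColGFP, by class; filled points passed the threshold. Lfng, Mfng, Dll1, Egfl7, Nrarp and Neurl3 are positive in DBL over ColGFP and negative in DBL over TDonly, and Numbl is positive in DBL over TDonly.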

How the data were processed

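Values are raw counts of reads per gene, as the authors deposited them. The submitters' processing notes name cutadapt, TopHat, HTSeq and mm10, without versions. Ribosomal RNA was depleted, per the series design text. The labels' protocol describes RNA from frozen lungs, and how it applies to sorted cells is not stated. Columns were matched to samples by sequencing core number, and 3 columns that matched no sample were not used.

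Genes were kept by filterByExpr (minimum count 10). All 9 libraries entered one quasi-likelihood fit, with TMM factors and one mean for each population (edgeR 4.0.16, limma 3.58.1, R 4.3.3; 6 residual and 3.42 prior degrees of freedom), and each contrast was tested two-sided. The SE was obtained as the absolute log2 fold change over the root of F. The fit was tested on simulated data. Exon lengths are unions of GENCODE M21 exons. The ratio to endothelial markers leaves out Egfl7. The lowest count in a library was 127 among the 10 genes, but 1 for Dlk1, 11 for Dner, 46 for Aph1c, 48 for Mfng and 87 for Hey2, whose levels are less precise.

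The 10 genes were all named in every comparison, and of the wider list those with the smallest adjusted p, up to 4 per class and comparison, could be named, with levels for the rest of each pattern; most alike genes used log2 CPM with a prior count of 2, without unnamed gene models. The members, gene lists and rules were chosen with earlier results of these data known. Alternatives were DESeq2 size factors, library totals, the DESeq2 1.42.0 test, no filter, only the populations compared, core number or replicate number in the fit, the higher series alone, the longest transcript, and leaving out each library.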

Additional observations from a re-analysis of the deposited data

How the results depend on the processing

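In DBL against ColGFP, the count of the 10 genes called lower (1, Hes1) was 2 by DESeq2 and 3 with core number series or run in the fit, with only the 2 populations compared, and in the higher series alone. It ranged from 0 (without ColGFP replicate 2) to 3 (without TDonly replicate 1) when 1 library was left out. Higher-series libraries alone gave 2543 genes higher (1250 in all libraries), 1969 lower (1006) and 11 wider genes lower (4) there, and, in DBL against TDonly, 3031 genes lower (1965) and 18 wider genes higher (10). Leaving out 1 library gave 581 to 1298 genes and 0 to 5 wider genes lower in DBL against ColGFP, at 669 or fewer genes when any DBL library, ColGFP replicate 2 or ColGFP replicate 3 was left out, and 1155 (without DBL replicate 4) to 2020 genes lower in DBL against TDonly. Notch2, Notch3 and Heyl passed in DBL against ColGFP under 7, 7 and 5 alternatives. Under the rest they missed the threshold, with adjusted p up to 0.225, 0.167 and 0.267. The log2 fold change of Hes1 in TDonly over ColGFP turned to 0.15 with library totals, 0.032 without TDonly replicate 1 and 0.027 without ColGFP replicate 2 (-0.12 to 0.032 over the libraries left out), and did not pass under any of these. Library totals shifted the median of all genes in TDonly over ColGFP by 0.149 (log2) and put 59.3% of its calls in the higher direction, against 47.4% with TMM. In DBL over TDonly the shift was -0.089, with 48.5% of calls higher, against 57.8%, and in DBL over ColGFP 0.060, with 64.8%, against 55.4%. With longest transcripts, Notch1 was 30.25% and Notch3 18.95% of the receptor sum in DBL, Notch1 43.63% in TDonly, and Notch1 20.67% and Notch2 56.77% in ColGFP; Dll4 was 54.27% and Jag2 16.11% of the ligand sum in DBL, Dll4 61.78% and Jag2 20.68% in TDonly, and Jag2 11.99% in ColGFP. The alternatives for the ligand shares and for the ratios to endothelial markers were chosen after seeing the data. The cause was not tested, except that the lengths alone differ in the last. Over all alternatives, 515 log2 fold changes of the 10 genes kept direction and side of the threshold, 19 passed newly, 3 no longer passed and 3 turned.

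Same-numbered libraries of different populations had deviation correlations of 0.0156 to 0.527, not all above 0.1, and DBL replicate 3 was closer to TDonly replicate 2 (0.306) than to TDonly replicate 3 (0.232), so the numbers were not taken to pair the libraries. All 7 such pairs also share a core number series, and 5 of the 7 a run of core numbers. Libraries of the same run correlated at 0.306 to 0.527 for DBL and TDonly, 0.0143 to 0.122 for DBL and ColGFP and 0.0450 to 0.102 for TDonly and ColGFP. With the replicate number as a block, 2 of the 10 genes and 626 of all genes were lower in DBL than in ColGFP, and Jag1 in DBL against TDonly did not pass (-0.37, adjusted p = 0.0704).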
